A study of Mus musculus with 15 samples.

Results

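Local thyroid hormone action in brown fat is followed here through 8 genes, listed by name (with earlier results of these data known): the deiodinases Dio2 and Dio1, the transporter Slc16a10, the nuclear receptors Thra and Thrb, the receptor partner Rxra, the corepressor Ncor1 and the target gene Klf9. Of these 8 genes, 7 had at least 1 probe set that the platform annotation pairs with a single symbol, out of 18194 such genes in the series, and together they had 22 probe sets. Ncor1 was not analysed here. Where a gene had several probe sets, the brightest on average across the 15 arrays stood for it and the others are given beside it, and 6 members passed the filter on dim genes (a mean of at least 5.06 on the log2 scale), among 13174 genes tested. Dio1 was below that filter and its values are given without a test.

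Brown fat makes heat, and thyroid hormone acts with sympathetic signals to allow it. The enzyme encoded by Dio2, type 2 deiodinase, removes an iodine atom from the prohormone thyroxine (T4) inside the cell to give the active hormone T3, which binds nuclear receptors that pair with retinoid X receptors on target genes. Without hormone these receptors hold corepressors such as NCOR1, and with hormone they exchange them for coactivators. In brown adipocytes transcription of Dio2 is known to be driven by cAMP, and the enzyme itself is short-lived.

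Total RNA from interscapular brown adipose tissue was read on 1 microarray per animal, in 3 groups of 5 biological replicates. All animals were adult male wild-type C57BL/6N mice fed a high-fat diet, and tissue was taken on day 5. Controls are animals 31 to 35, and the labels name no injected substance for them. FGF21 animals, 36 to 40, received the human hormone at 1 mg/kg 2 times a day, which is 2 mg/kg/day, for 5 days. The antibody animals, 41 to 45, received 10 mg/kg of bFKB1 by a single intraperitoneal injection. FGF21 is a hormone that acts on FGF receptor 1 with its co-receptor beta-klotho (KLB), and bFKB1 is an antibody that activates the same FGFR1/KLB complex (called aFGFR1/KLB in the labels). Agent, dose and schedule all differ between the treated groups, and both are compared with the same 5 controls. The purpose of the comparisons was to see which transcripts of brown fat differed after each way of activating the receptor complex.

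Values are RMA intensities taken to log2, so a difference of 1 is a doubling. Array medians lay between 50.6 and 52.1 intensity units. The median standard error of a difference over all genes tested was 0.10, and the number of arrays limits the precision. Of 7 genes listed as brown adipocyte markers, 6 had a probe set: Ucp1, Cidea, Adipoq, Fabp4, Cox7a1 and Cox8b. Adipoq and Fabp4 are not particular to brown adipocytes, so the sum of the 6 does not measure these cells alone. The means of the 6 genes were 13.73 to 14.98 on the log2 scale. Their summed intensity ranged from 16.99 to 17.09 in controls, 16.96 to 17.10 with FGF21 and 17.07 to 17.14 with the antibody. Other cell types varied more. The summed level of 8 of 8 macrophage markers ranged from 12.40 to 14.88, 12.63 to 15.18 and 13.06 to 13.72 in the same order, with the highest values in control 34 and FGF21 36, and that of 7 of 7 skeletal muscle markers from 13.38 to 14.93, 11.11 to 16.31 and 11.07 to 16.50, with the highest values in aFGFR1/KLB 45 and FGF21 36.

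The promoters of the members whose transcripts were higher in treated animals, Dio2 and Klf9, are shown first because cAMP response elements, on which cAMP-driven transcription factors sit, are known to lie there in Dio2. Each is the 250 bases before the start of the gene in RefSeq (GRCm38.p6), read 5′ to 3′ on the gene's own strand. Dio2 is at chr12:90739039-90739288 on the minus strand and Klf9 at chr19:23140976-23141225 on the plus strand. Capitals mark the full cAMP response element TGACGTCA and the TATA-like letters TATAAA in Dio2, and the shorter letters TGACG in Klf9.
Dio2: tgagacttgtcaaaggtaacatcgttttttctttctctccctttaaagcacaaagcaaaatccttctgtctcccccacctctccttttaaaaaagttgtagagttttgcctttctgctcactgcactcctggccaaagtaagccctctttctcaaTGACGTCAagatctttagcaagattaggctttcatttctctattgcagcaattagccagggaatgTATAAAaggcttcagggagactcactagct
Klf9: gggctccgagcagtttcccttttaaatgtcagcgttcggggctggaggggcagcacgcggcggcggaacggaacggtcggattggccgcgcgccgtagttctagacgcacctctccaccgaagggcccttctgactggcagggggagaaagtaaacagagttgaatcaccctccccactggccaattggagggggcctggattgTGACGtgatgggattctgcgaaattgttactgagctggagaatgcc
Counted from the start of the gene, the full element in Dio2 began at position -95 and the TATA-like letters at -30. In Klf9 the letters TGACG began at -46. Thrb, which was not called in any comparison, also held TGACG, at -56 in 1 window, and TATAAA, at -167 in another. Among all 32817 promoter windows of this length, searched on both strands, 1.55% held TGACGTCA, 17.7% held TGACG (which every full element also contains), and 12.4% held TATAAA. The receptor motif AGGTCA, to which thyroid hormone receptors can bind, was in 14.0% of all windows and in neither of these. It occurred in 1 of the windows of Thrb and, on both strands, in 1 of those of Rxra, and its direct repeat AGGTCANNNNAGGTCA, found in 0.0152% of all windows, in none of the 10 windows of the 7 members that have an entry. These are matches of letters in a short window, and binding was not measured.

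Dio2 was higher in every treated animal than in any control. The 5 controls read 9.10, 9.26, 9.17, 9.08 and 9.25 on the log2 scale, a mean of 9.17 ± 0.08 (SD, n = 5), which corresponds to about 576 intensity units. FGF21 animals read 10.20, 11.66, 10.63, 11.58 and 11.20, with a mean of 11.06 ± 0.63 (SD, n = 5) or 2130 intensity units. Antibody animals read 10.29, 10.60, 10.27, 10.67 and 9.81, with a mean of 10.33 ± 0.34 (SD, n = 5) or 1290 intensity units. The controls were tightly grouped, the FGF21 animals the most widely spread, and the lowest treated values belonged to FGF21 36 and aFGFR1/KLB 45. With FGF21 Dio2 rose 3.70-fold, a log2 difference of 1.89 ± 0.24 (SE; 95% interval 1.37 to 2.40; limma adjusted p = 5.9e-04). With the antibody it rose 2.23-fold, a log2 difference of 1.16 ± 0.24 (SE; 95% interval 0.64 to 1.67; limma adjusted p = 0.0142). For both comparisons the exact two-sided permutation p was 0.00794, the smallest that all splits of 5 against 5 can give. In bulk tissue, more cells of a type cannot be told apart from more RNA per cell, nor fewer cells from less RNA.

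Between the treated groups the ranges of Dio2 overlapped, since FGF21 36 and FGF21 38 lay within the antibody range. The antibody animals were 0.73 ± 0.24 (SE) below the FGF21 animals in mean log2 value (difference -0.73; 95% interval -1.24 to -0.21), which did not pass after adjustment (limma adjusted p = 0.22; exact permutation p = 0.0873). Without FGF21 36 and control 34 together, the arrays with the most macrophage and fibroblast signal, the difference was -0.94 and passed (limma adjusted p = 0.0342). It also passed with arrays weighted by their spread (-0.79, limma adjusted p = 0.0125) and with macrophage and muscle marker means as covariates (-0.88, limma adjusted p = 0.0425). In none of the 15 fits without 1 array did it pass (limma adjusted p from 0.0666 to 0.413).

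The other Dio2 probe sets moved the same way as the one used. For 1426081_a_at controls read 6.81, 7.47, 7.21, 6.82 and 7.33, FGF21 animals 7.64, 9.10, 8.39, 8.85 and 8.85, and antibody animals 8.01, 8.46, 8.06, 8.34 and 7.43, so that FGF21 animals all lay above the controls and aFGFR1/KLB 45 fell among them. Its differences from control were 1.44 with FGF21 and 0.93 with the antibody (limma adjusted p over all probe sets 0.0047 and 0.0482). For the dimmer 1418938_at they were 1.32 and 0.82 (limma adjusted p 0.013 and 0.116), with 1 treated animal of each group, FGF21 36 and aFGFR1/KLB 45, among the controls. All 3 probe sets thus passed with FGF21 and 2 of 3 with the antibody.

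**Figure D1:**
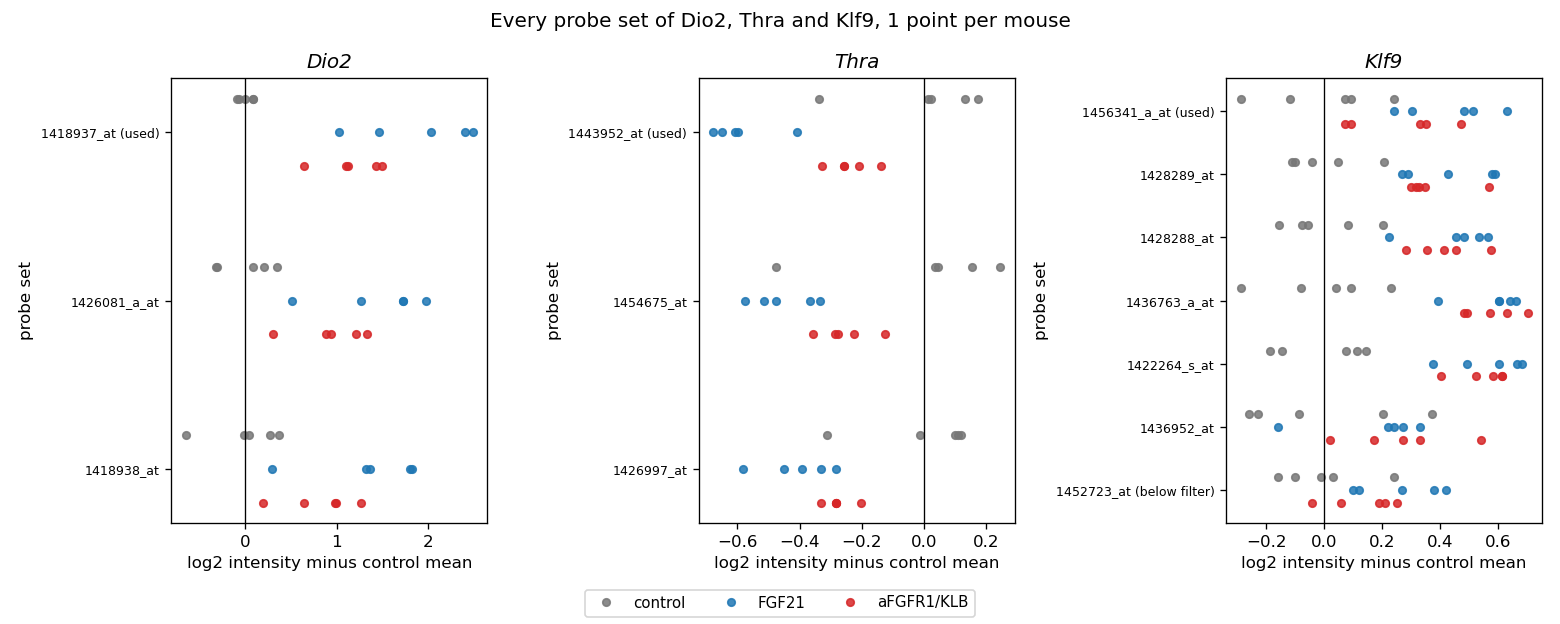
Each point is 1 mouse, plotted as its log2 intensity minus the control mean of that probe set, for every probe set of Dio2 (left), Thra (middle) and Klf9 (right). For the probe set of Dio2 used, all 10 treated mice lie to the right of the 5 controls, and for 4 of the 7 Klf9 probe sets the treated mice of both groups lie to the right of all controls.

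The rise of Dio2 with the antibody passed in all 15 fits that left out 1 array (limma adjusted p from 0.00295 to 0.0435), and that with FGF21 also in all 15 (up to 0.00266). With macrophage and muscle marker means as covariates the differences were 1.07 and 1.95. The white adipocyte markers Lep and Retn varied more between animals. The log2 of the summed intensity of these 2 of 2 markers ranged from 11.52 to 12.20 in controls, 10.65 to 12.75 with FGF21 and 10.06 to 12.22 with the antibody. FGF21 37 and FGF21 39, with the highest Dio2, had 10.82 and 10.65, and FGF21 36, with the lowest of that group, had 12.75, but FGF21 40, with a Dio2 of 11.20, had 11.56. The lowest sums, 10.06 and 10.20, were in aFGFR1/KLB 44 and 42, which had the highest Dio2 of the antibody group, and aFGFR1/KLB 43, with a Dio2 of 10.27, had 10.68. But aFGFR1/KLB 41, with a Dio2 of 10.29, had the highest sum of that group, 12.22. The lowest Dio2 of the group, 9.81 in aFGFR1/KLB 45, went with a sum of 11.48. With this marker mean as a covariate, an alternative chosen after seeing the data, the antibody difference was 0.68 and no longer passed (limma adjusted p = 0.0667), while that with FGF21 was 1.64. This covariate is the mean of 2 genes read after treatment, so it cannot tell white adipocyte content apart from a response of these genes. The part of white adipocytes in the result was not tested.

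Dio1, the deiodinase of liver, kidney and thyroid that also makes T3, was near the floor of the arrays. Controls read 3.72, 3.66, 3.64, 3.57 and 4.04, FGF21 animals 3.47, 3.65, 3.42, 3.34 and 3.41, and antibody animals 3.68, 3.62, 3.52, 3.76 and 3.51. Its probe set mean of 3.60 was higher than only 12.7% of all probe sets, and the groups overlapped.

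Thra encodes thyroid hormone receptor alpha, together with a splice form that does not bind hormone. Controls read 9.59, 9.63, 9.47, 9.12 and 9.48 (mean 9.46 ± 0.20, SD, n = 5), FGF21 animals 8.78, 8.86, 8.85, 9.05 and 8.81 (8.87 ± 0.10, SD, n = 5), and antibody animals 9.20, 9.20, 9.13, 9.32 and 9.25 (9.22 ± 0.07, SD, n = 5). Every FGF21 animal lay below every control and below every antibody animal, whereas the antibody animals overlapped the controls through control 34 alone. With FGF21 Thra fell 1.51-fold (log2 difference -0.59 ± 0.09, SE; 95% interval -0.78 to -0.40; limma adjusted p = 0.0014). Its other probe sets, 1454675_at and 1426997_at, also fell (-0.45 and -0.41; limma adjusted p 0.0262 and 0.00981 over all probe sets). The fall passed in all 15 fits without 1 array, but not with arrays centred on ribosomal protein genes (-0.58, limma adjusted p = 0.0634).

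With the antibody the Thra difference from control was -0.24 ± 0.09 (SE; 95% interval -0.43 to -0.05), and the 3 probe sets gave -0.24, -0.25 and -0.28. It did not pass with all arrays (limma adjusted p = 0.131; exact permutation p = 0.0476). Without control 34, the control with the lowest Thra and the most macrophage signal, it was -0.32 and passed (limma adjusted p = 0.00801). In no other of the 15 fits without 1 array did it pass. The antibody animals stood 0.35 ± 0.09 (SE) above the FGF21 animals (95% interval 0.16 to 0.54; limma adjusted p = 0.101; exact permutation p = 0.00794, the smallest possible), with no overlap on this probe set. This too passed without control 34 (0.35, limma adjusted p = 0.0123), and in no other of the 15 fits without 1 array. The other Thra probe sets differed less between the treated groups, by 0.20 and 0.13, and overlapped. In the annotation Thra overlaps the clock gene Nr1d1, which is known to be transcribed from the opposite strand, and the splice form that each probe set reads is not given in the sources used here.

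**Figure D2:**
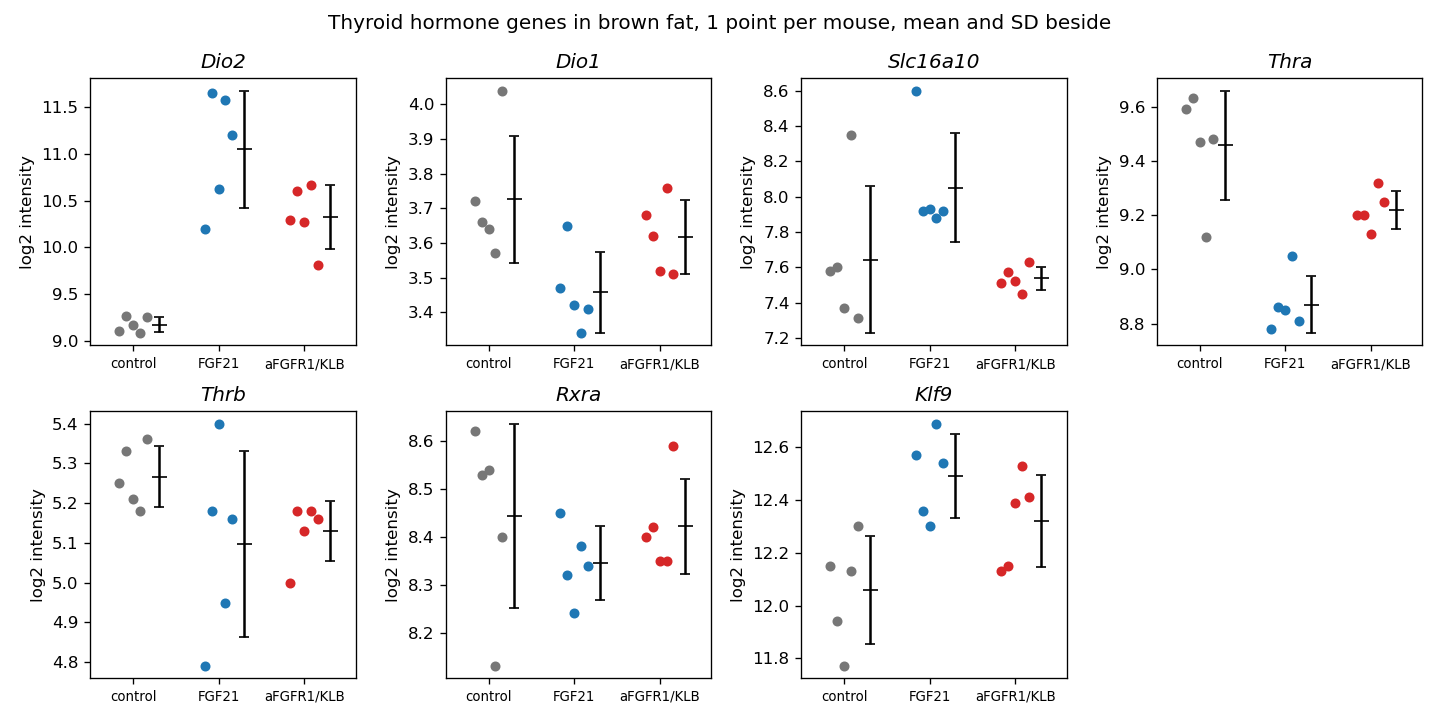
Log2 intensity of the 7 members with a probe set, 1 point per mouse, in the control, FGF21 and aFGFR1/KLB groups, each with its mean and SD as a bar (n = 5). Dio2 is higher in all 10 treated mice than in the 5 controls, and Thra is lower in all 5 FGF21 mice than in any other mouse.

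Thrb, the gene of the other receptor, was just above the filter, with a mean of 5.16. Controls read 5.25, 5.33, 5.21, 5.18 and 5.36, FGF21 animals 4.79, 5.18, 5.40, 4.95 and 5.16, and antibody animals 5.00, 5.18, 5.13, 5.18 and 5.16. The antibody animals lay below the controls by the narrowest margin, with the lowest control and the highest antibody values equal to the second decimal, and the FGF21 animals spread on both sides of them. The differences from control were -0.14 with the antibody (95% interval -0.34 to 0.06; limma adjusted p = 0.477; exact permutation p = 0.00794) and -0.17 with FGF21 (95% interval -0.37 to 0.03; limma adjusted p = 0.346). The treated groups differed by 0.03 (95% interval -0.17 to 0.23).

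Rxra, the retinoid X receptor gene whose product pairs with thyroid hormone receptors, passed in no comparison. Controls read 8.62, 8.53, 8.54, 8.13 and 8.40, FGF21 animals 8.45, 8.32, 8.24, 8.38 and 8.34, and antibody animals 8.40, 8.42, 8.35, 8.35 and 8.59. The 3 groups overlapped, and control 34 was the lowest of all. The difference from control was -0.02 with the antibody (95% interval -0.20 to 0.16; limma adjusted p = 0.926) and -0.10 with FGF21 (95% interval -0.28 to 0.08; limma adjusted p = 0.574). The sign of each turned in at least 1 other setting.

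Slc16a10 encodes MCT10, a transporter of aromatic amino acids and T3. Controls read 7.58, 7.60, 7.37, 8.35 and 7.31, FGF21 animals 8.60, 7.92, 7.93, 7.88 and 7.92, and antibody animals 7.51, 7.57, 7.52, 7.45 and 7.63. Control 34 and FGF21 36 stood well above the rest of their groups, and the remaining 4 FGF21 animals lay within 0.05 of each other and above every animal except those. The FGF21 difference from control was 0.41 ± 0.18 (SE; 95% interval 0.03 to 0.79; limma adjusted p = 0.205; exact permutation p = 0.135), that of the antibody -0.10 ± 0.18 (SE; 95% interval -0.48 to 0.27; limma adjusted p = 0.814). Without control 34 the FGF21 difference was 0.59 and passed (limma adjusted p = 0.00784), and without both of these arrays it was 0.45 (limma adjusted p = 0.00101). Among the 15 fits without 1 array it passed only without control 34.

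On this probe set every antibody animal had less Slc16a10 signal than every FGF21 animal (difference -0.51 ± 0.18, SE; 95% interval -0.89 to -0.14), which did not pass over all genes (limma adjusted p = 0.236; exact permutation p = 0.00794). It passed without control 34 (-0.51, limma adjusted p = 0.0467) and without both arrays (-0.38, limma adjusted p = 0.0133). In no other of the 15 fits without 1 array did it pass. Control 34 and FGF21 36 carried the highest summed macrophage marker levels of the series, 14.88 and 15.18. With the macrophage marker mean as a covariate, alone or with that of muscle, neither the FGF21 difference from control nor that between the treated groups passed. These markers were also read after treatment, and the part of macrophages in the transporter's values was not tested. The other Slc16a10 probe sets above the filter, 1434592_at and 1440569_at, differed from control by 0.02 and 0.07 with FGF21 and by -0.09 and 0.00 with the antibody. Between the treated groups they differed by -0.11 and -0.07 with overlap, and none of these differences passed.

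Klf9 encodes a zinc-finger transcription factor that T3 and glucocorticoids are known to induce, and it was the brightest member. On the probe set used, controls read 12.15, 11.94, 11.77, 12.13 and 12.30, FGF21 animals 12.57, 12.36, 12.30, 12.69 and 12.54, and antibody animals 12.13, 12.15, 12.39, 12.53 and 12.41. The FGF21 animals touched only the highest control, and the antibody animals were spread from the middle of the controls upwards. Klf9 rose with FGF21 by 0.43 ± 0.11 (SE; 95% interval 0.20 to 0.67; limma adjusted p = 0.031; exact permutation p = 0.0159), whereas its difference with the antibody was 0.26 ± 0.11 (SE; 95% interval 0.03 to 0.50; limma adjusted p = 0.199; exact permutation p = 0.0556). The treated groups differed by -0.17 (95% interval -0.41 to 0.07; limma adjusted p = 0.505).

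The Klf9 result depended on the probe set. On 1436763_a_at controls read 9.24, 9.07, 9.19, 8.86 and 9.38, FGF21 animals 9.54, 9.81, 9.75, 9.79 and 9.75, and antibody animals 9.64, 9.63, 9.85, 9.78 and 9.72. All 10 treated animals lay above all controls there, with differences of 0.58 with FGF21 and 0.57 with the antibody (limma adjusted p 0.0021 and 0.00292 over all probe sets). On 1422264_s_at the differences were 0.56 and 0.55 (limma adjusted p 0.00161 and 0.00244), again with no overlap. All 6 Klf9 probe sets above the filter had higher means than control, by at least 0.18 with FGF21 and 0.26 with the antibody. Of them, 5 passed with FGF21 and 4 with the antibody, and in each comparison 4 showed no overlap. The mean of all Klf9 probe sets rose with the antibody by 0.37 (limma adjusted p = 0.0144). The FGF21 call on the probe set used ended in 5 of 15 fits without 1 array, namely control 32 (limma adjusted p = 0.0858), control 33 (0.0801), FGF21 36 (0.0516), FGF21 39 (0.0812) and FGF21 40 (0.0701), and also with only the compared groups in the fit (0.0779), with ribosomal centring (0.0654) and with the macrophage and muscle (0.0522) or white adipocyte (0.0592) covariates.

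Counted over the 6 members tested, 1 was called with the antibody (Dio2, higher) and 3 with FGF21 (Dio2 and Klf9 higher, Thra lower). Over all 13174 genes 5.18% were called with the antibody, 2.69% higher and 2.49% lower, and 6.32% with FGF21, 2.64% higher and 3.68% lower. Of the calls over all genes 51.9% were higher with the antibody and 41.8% with FGF21, and with ribosomal centring 82.3% and 64.8%. With so few members these counts carry little weight beside the single genes. The median difference of the members was -0.06 with the antibody and 0.15 with FGF21, against -0.02 over all genes tested in each. With the antibody 3 of 6 members had an unadjusted limma p under 0.05 (19.4% of all genes), and with FGF21 4 of 6 (20.4%). An exact permutation p under 0.05 was found for 3 members in each, against 21.1% and 16% of all genes. Groups did not overlap for Dio2 and Thrb with the antibody and for Dio2 and Thra with FGF21, against 8.61% and 5.25% of all genes. Between the treated groups 0 of 6 members were called by limma, 3 had an unadjusted p under 0.05 (13.5% of all genes) and 2 an exact permutation p under 0.05 (16.3% of all genes), while 0.372% of all genes were called, 0.129% higher with the antibody and 0.243% lower. Slc16a10 and Thra did not overlap between those groups, as did 4.69% of all genes.

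**Figure D3:**
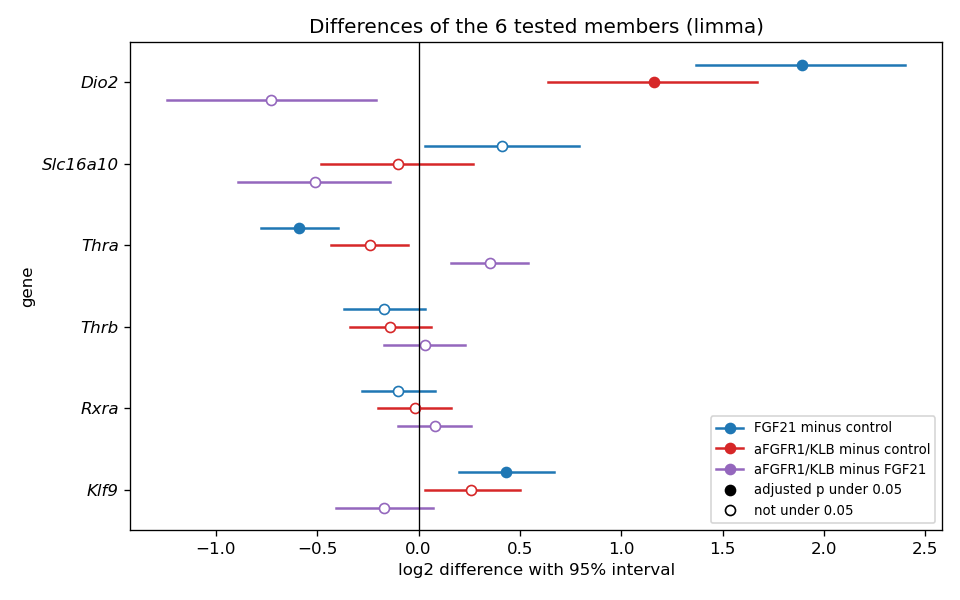
Log2 differences of the 6 tested members in the 3 comparisons, with 95% intervals and filled symbols where the limma adjusted p was under 0.05. Dio2 has the largest difference in both comparisons with control, 1.89 with FGF21 and 1.16 with the antibody, and no symbol is filled in the comparison of the treated groups.

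The genes whose levels across the 15 animals were most like those of Dio2, by Pearson correlation of log2 values over all genes tested, were Rcl1 (0.96), Dlc1 (0.95), Cdk17 (0.94), Dusp4 (0.94) and Arel1 (0.93). Predicted genes with clone-like symbols were skipped in this ranking. Dusp4 encodes a phosphatase of MAP kinases, Cdk17 a kinase, Rcl1 a nucleolar protein and Arel1 a ubiquitin ligase. The animals fall into 3 groups, and this measure includes the differences between them. After removal of the group means, the correlation with Dio2 was 0.90 for Rcl1, 0.73 for Dlc1, 0.74 for Cdk17, 0.65 for Dusp4 and 0.86 for Arel1. With the group means left in, but without FGF21 37 and FGF21 39, the animals farthest from the Dio2 median, the correlation was 0.93, 0.95, 0.93, 0.93 and 0.89 in the same order. Rcl1 averaged 8.47 in controls, 9.16 with FGF21 and 8.80 with the antibody. It was called with FGF21 (0.69, limma adjusted p = 0.00374) but not with the antibody (0.32, limma adjusted p = 0.133). Arel1 too was called with FGF21 (0.46, limma adjusted p = 0.0182) and not with the antibody (0.25, limma adjusted p = 0.198). Dlc1, Cdk17 and Dusp4 were called in both comparisons with control. Among the members themselves, Thra had a correlation with Dio2 of -0.72 over all animals and 0.32 after the group means were removed, and Klf9 one of 0.68 and 0.03, so their likeness to Dio2 lay between the groups and not within them.

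A wider list of 43 genes that act before, beside or after the members was drawn up by role, of which 35 were tested. With the antibody 4 of 35 were called (3 higher, 1 lower) and with FGF21 7 of 35 (3 higher, 4 lower), against 5.18% and 6.32% of all genes tested. The median differences were 0.01 and 0.05. In each comparison with control, 15 of 35 had an unadjusted limma p under 0.05, against 19.4% (antibody) and 20.4% (FGF21) of all genes. By the exact permutation test 15 were under 0.05 with the antibody and 11 with FGF21, against 21.1% and 16% of all genes. The list was chosen with earlier results of these data known. Between the treated groups limma called 0 of 35, while 6 had an unadjusted p under 0.05 and 7 an exact permutation p under 0.05, as did 13.5% and 16.3% of all genes. With arrays centred on ribosomal protein genes 3 of the 4 antibody calls (all but Med1) and 6 of the 7 FGF21 calls (all but Cpt1a) ended. With the white adipocyte covariate all 4 antibody calls and 4 of the 7 FGF21 calls (Hdac3, Med1, Acaca and Cpt1a) ended, and with only the compared groups in the fit 1 (Ucp1) and 6 (all but Pstk). The beta-adrenergic receptor gene Adrb3 and the inactivating deiodinase Dio3 were not analysed here. In limma 0 of 2 genes upstream of Dio2, 0 of 4 of the ubiquitin system that turns type 2 deiodinase over, 0 of 2 further transporters and 0 of 2 further retinoid X receptors were called in either comparison with control. At an unadjusted p under 0.05 there were 1, 1, 0 and 0 of them with the antibody, and 1, 0, 1 and 1 with FGF21. By the exact permutation test there were 0, 1, 0 and 1 with the antibody and 1, 0, 0 and 0 with FGF21. Over all genes tested, 19.4% with the antibody and 20.4% with FGF21 had an unadjusted p under 0.05, and 2774 and 2106 of the 13174 genes had an exact permutation p under 0.05.

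**Figure D4:**
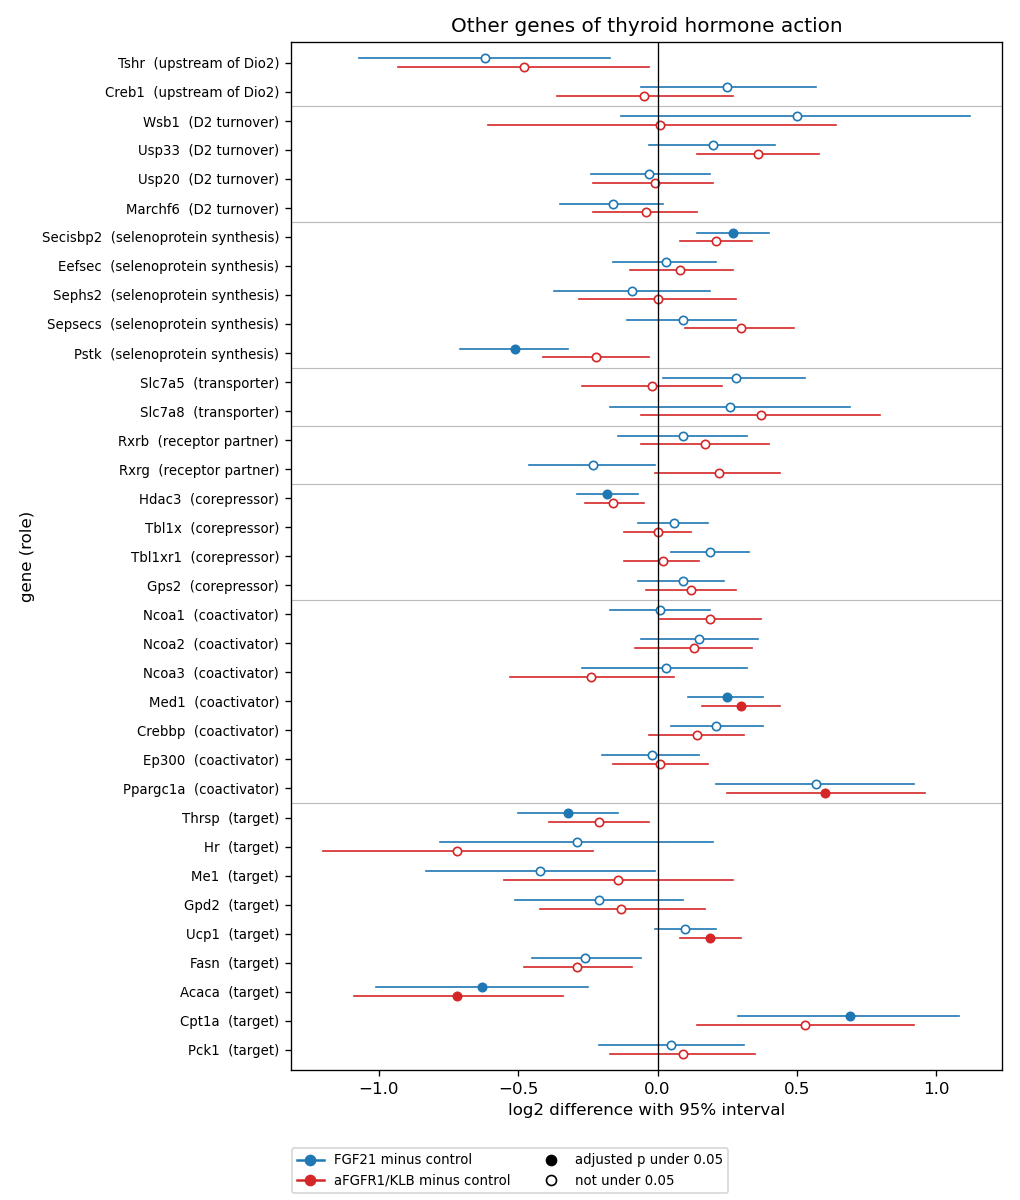
Log2 differences from control, with 95% intervals, of the 35 tested genes of the wider list by role, for FGF21 and for the antibody; filled symbols have a limma adjusted p under 0.05. Filled symbols stand on both sides of 0, at 7 genes with FGF21 and 4 with the antibody.

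Type 2 deiodinase is a selenoprotein, and 2 of 5 tested genes for making selenoproteins were called with FGF21, 1 higher and 1 lower, where 2.64% of all genes were higher and 3.68% lower. Pstk, a kinase that prepares the selenocysteine transfer RNA, read 9.19, 9.41, 9.40, 9.04 and 9.20 in controls, 8.51, 8.68, 8.96, 8.67 and 8.86 with FGF21 and 8.96, 9.02, 9.05, 9.11 and 8.99 with the antibody. All FGF21 animals lay below all controls and all antibody animals, while the antibody animals overlapped the lowest control. Pstk fell by 0.51 ± 0.09 with FGF21 (SE; limma adjusted p = 0.00409), a call kept in all 15 fits without 1 array, and its difference with the antibody was -0.22 (limma adjusted p = 0.184). The FGF21 call ended after centring on ribosomal protein genes (limma adjusted p = 0.141). Secisbp2, whose protein recruits the selenocysteine machinery to the messenger RNA, rose with FGF21 by 0.27 ± 0.06 (SE; limma adjusted p = 0.0183) from a control mean of 8.07. Its difference with the antibody was 0.21 (limma adjusted p = 0.0625), which passed without control 34 (0.24, limma adjusted p = 0.0244) and without FGF21 36 (0.21, limma adjusted p = 0.0498). The FGF21 call for Secisbp2 ended without FGF21 39 (limma adjusted p = 0.0516), with ribosomal centring (0.235) and with only the compared groups (0.0903).

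Among cofactors, 7 coactivator genes were tested. Of them, 2 were called with the antibody (Ppargc1a and Med1) and 1 with FGF21 (Med1), all higher. Over all genes 2.69% and 2.64% were called higher. Ppargc1a, which encodes the coactivator PGC-1alpha of mitochondrial biogenesis, read 10.03, 10.34, 10.06, 10.19 and 10.12 in controls, 10.13, 10.84, 10.56, 11.26 and 10.78 with FGF21 and 10.59, 10.88, 10.96, 10.89 and 10.44 with the antibody. The antibody animals all lay above the controls, and of the FGF21 animals only FGF21 36 lay among them. Ppargc1a rose with the antibody by 0.60 ± 0.17 (SE; limma adjusted p = 0.0486), and the difference with FGF21 was 0.57 ± 0.17 (SE; limma adjusted p = 0.0559). The treated groups differed by 0.04 (95% interval -0.32 to 0.39). With the white adipocyte covariate the antibody difference was 0.30 (limma adjusted p = 0.278). The antibody call ended in 11 of 15 fits without 1 array (limma adjusted p up to 0.117), all but those without control 34, FGF21 36, FGF21 39 or aFGFR1/KLB 45. The FGF21 difference passed without control 34 (0.58, limma adjusted p = 0.0435) or FGF21 36 (0.71, limma adjusted p = 0.00695).

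Med1, a Mediator subunit that nuclear receptors contact, rose by 0.30 ± 0.06 with the antibody and 0.25 ± 0.06 with FGF21 (SE; limma adjusted p 0.016 and 0.0334). The mean of all its probe sets differed by 0.08 and 0.05 and did not pass (limma adjusted p 0.384 and 0.582), and the antibody call also ended with the white adipocyte covariate (0.119). The corepressor partner Hdac3, a histone deacetylase, fell by 0.18 ± 0.05 with FGF21 (SE; limma adjusted p = 0.0481). It was the 1 of 4 tested corepressor genes to be called, where 3.68% of all genes were called lower with FGF21. Its difference with the antibody was -0.16 (limma adjusted p = 0.0909), which passed without control 34 (-0.19, limma adjusted p = 0.0267) and in no other fit without 1 array. The FGF21 call for Hdac3 held only without control 34 (0.00947) among the 15 fits without 1 array, and that for Med1 ended in 8 of 15 (limma adjusted p up to 0.0878), those without control 31, 32, 33 or 35 or without FGF21 37, 38, 39 or 40.

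The wider list held 9 tested genes known to answer to T3 in fat, liver or brain. Of these, 2 were called with the antibody (5.18% of all genes) and 3 with FGF21 (6.32% of all genes), in both directions. In each comparison 3 of 9 had a higher mean than control. The median differences were -0.14 with the antibody and -0.26 with FGF21, against -0.02 over all genes in each. With the antibody 6 had an unadjusted limma p under 0.05 (19.4% of all genes) and 6 an exact permutation p under 0.05 (21.1%). With FGF21 these were 5 (20.4%) and 3 (16%). Acaca, the acetyl-CoA carboxylase of fatty acid synthesis, read 12.61, 12.83, 12.69, 11.84 and 12.29 in controls, 11.39, 12.08, 12.14, 11.56 and 11.93 with FGF21 and 11.70, 11.77, 11.72, 11.65 and 11.84 with the antibody. Control 34 was the lowest control and alone lay within the FGF21 range. The antibody animals did not overlap the controls, though control 34 and the highest of them were equal to the second decimal. Acaca fell by 0.72 ± 0.18 with the antibody and by 0.63 ± 0.18 with FGF21 (SE; limma adjusted p 0.0305 and 0.047). The mean of all Acaca probe sets differed by -0.58 and -0.51 and did not pass (limma adjusted p 0.0747 and 0.109). Thrsp, a lipogenic gene known as Spot 14 and induced by T3 in liver, fell by 0.32 ± 0.08 with FGF21 (SE; limma adjusted p = 0.034), and its difference with the antibody was -0.21 (limma adjusted p = 0.175). With the mean of all Thrsp probe sets the FGF21 difference was -0.38 and did not pass (limma adjusted p = 0.0543). Cpt1a, the carnitine transferase that admits fatty acids to mitochondria, rose with FGF21 by 0.69 ± 0.18 (SE; limma adjusted p = 0.0386). Its difference with the antibody was 0.53 (limma adjusted p = 0.117) and passed without control 34 (0.74, limma adjusted p = 0.00157), which read 8.83 against 7.66 to 7.90 in the other controls. In no other fit without 1 array did that difference pass. Hr, a corepressor gene that T3 is known to induce in brain, was named after its values were seen. Its difference with the antibody was as large as that of Acaca but did not pass (-0.72 ± 0.23, SE; 95% interval -1.20 to -0.23; limma adjusted p = 0.0862), and with FGF21 it was -0.29 (limma adjusted p = 0.533).

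Ucp1, the uncoupling protein that makes heat, read 14.58, 14.61, 14.52, 14.56 and 14.67 in controls, 14.55, 14.71, 14.76, 14.71 and 14.74 with FGF21 and 14.76, 14.81, 14.77, 14.82 and 14.72 with the antibody. It stood near the top of the arrays' range in all animals, and the antibody animals lay above all controls. Ucp1 rose with the antibody by 0.19 ± 0.05 (SE; 95% interval 0.08 to 0.30; limma adjusted p = 0.0494), and the difference with FGF21 was 0.10 ± 0.05 (SE; 95% interval -0.01 to 0.21; limma adjusted p = 0.29). Among the 15 fits without 1 array the Ucp1 call held only without FGF21 36 (0.0213), that for Acaca with FGF21 in 2 (without control 34 or FGF21 38), that for Cpt1a in 2 (without control 34 or aFGFR1/KLB 45), that for Acaca with the antibody in 8 and that for Thrsp in 8. The Acaca call with the antibody ended without control 31, 32 or 33 or aFGFR1/KLB 41, 42, 43 or 44 (limma adjusted p up to 0.0818), and the Thrsp call without control 31, 32, 33 or 35 or FGF21 36, 39 or 40 (up to 0.0917). The highest adjusted p in such fits was 0.119 for Ucp1, 0.126 for Acaca with FGF21 and 0.103 for Cpt1a.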

How the data were processed

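The deposited values are linear intensities, 1 per probe set and array, which the authors made with RMA, which corrects background, quantile normalises and summarises probes, per the submitters' processing notes; the version is not given in the sources used here. Intensities ran from 5.58 to 34652 and were taken to log2. Groups come from the sample titles. Of 45101 probe sets, 34958 had 1 symbol in GEO's platform annotation, 932 several and 9211 were unnamed. Genes whose probe set mean passed the 40th percentile were tested in a 3-group model over 15 samples (12 residual degrees of freedom; limma 3.58.1, R 4.3.3; two-sided, Benjamini-Hochberg over 13174 genes per comparison, threshold 0.05). P-values adjusted over probe sets use all single-symbol probe sets above the filter. Exact permutation tests used all splits of 5 against 5 and are not adjusted.

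The members, the wider list, the markers and the naming rules (all members, listed genes called in a comparison, and the 5 genes most like Dio2) were chosen with earlier results of these data known. Clone-like symbols were skipped among those 5. On simulated data with 200 of 13174 genes changed, the fit recovered 68.1%, 92.8% and 98.2% of log2 changes of 0.5, 1 and 2 for antibody minus control, with 3.89% false calls. False calls were 4.84% for FGF21 minus control and 4.76% for antibody minus FGF21. Each gene was drawn independently, so shifts that many genes of an array share were not simulated, and the error rate under such shifts was not tested. Alternatives were other filters, probe set rules, scalings, covariates, array weights and left-out arrays. Arrays give no read depth, and no batch is labelled.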

Additional observations from a re-analysis of the deposited data

Results flagged for a closer look

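Of 21 sets of 5 animals (7 members in 3 groups), 3 held a value far from the others of its group, by a criterion that flags about 1 in 20 such groups by chance. Slc16a10 in control 34 was 8.35, with the next control at 7.60, and this gap took up 0.721 of the group's range. Slc16a10 in FGF21 36 was 8.60, with the next FGF21 animal at 7.93 and a gap of 0.938 of the range. Thra in FGF21 39 was 9.05, with the next animal at 8.86 and a gap of 0.719 of the range.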

How the results depend on the processing

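Dio2 kept its call with FGF21 in all 29 alternatives (1.55 to 2.10) and with the antibody in 28 of 29 (0.68 to 1.29), the exception being the white adipocyte covariate (0.68). Its difference between the treated groups passed in 4 of 29: array weights -0.79, macrophage and muscle covariates -0.88, white adipocyte covariate -0.96, and without control 34 and FGF21 36 together -0.94. Thra kept its FGF21 call in 28 of 29 (-0.68 to -0.48) and Klf9 in 20 of 29 (0.35 to 0.49).

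Genes called with the antibody, 682, became 1094 with all probe sets tested, 181 with ribosomal centring, 2307 with array weights, 1693 with the macrophage covariate, 1619 with macrophage and muscle, 141 with the white adipocyte covariate, 1631 without control 34 and FGF21 36, and 336 to 1140 without 1 array. Those with FGF21, 833, became 213 with ribosomal centring, 322 with only the compared groups, 2855 with array weights, 1387 and 1253 with the macrophage and the macrophage and muscle covariates, 2138 without both arrays, and 463 to 2097 without 1 array. Between the treatments, 49 became 77 with the 60th percentile filter, 95 with all probe sets, 8 with ribosomal centring, 87 with only the compared groups, 81 with the trend and robust options, 832 with array weights, 155 and 201 with these covariates, 241 without both arrays, and 10 to 251 without 1 array. Ribosomal centring shifted every gene by 0.10 for the antibody and 0.01 for FGF21 against control, and the share of calls that were higher went from 51.9% to 82.3% and from 41.8% to 64.8%. The cause of these moves was not tested.

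Members called with the antibody became 2 with the mean of probe sets, array weights, either macrophage covariate or both arrays out, 0 with the white adipocyte covariate, and 1 to 2 without 1 array; with FGF21, 3 became 1 with ribosomal centring, 4 with array weights or both arrays out, 2 with only the compared groups, macrophage and muscle or white adipocyte covariates, and 2 to 4 without 1 array; between the treatments 3 with array weights or both arrays out, 1 with only the compared groups, with macrophage and muscle or with white adipocyte covariates, and 0 to 2 without 1 array.

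Signs turned in 30 cases, where neither fit called the gene. Rxra minus control became 0.00 (mean of probe sets), 0.08 (ribosomal), 0.01 (macrophage and muscle), 0.04 (white adipocyte) and -0.10 to 0.02 (without 1 array) with the antibody and 0.01 (mean of probe sets) with FGF21; between the treatments it became -0.01. Slc16a10 with the antibody became 0.05 with array weights, 0.07 without both arrays and -0.19 to 0.07 without 1. Between the treatments, Thrb became -0.03 with array weights, -0.02 with either macrophage covariate, 0.00 with the white adipocyte covariate, -0.05 without both arrays and -0.05 to 0.11 without 1; Ppargc1a -0.03 and -0.02 with these macrophage covariates, -0.11 with the white adipocyte covariate or without both arrays and -0.11 to 0.17 without 1; Cpt1a 0.03 with either macrophage covariate; Secisbp2 0.03 and Acaca 0.00 with ribosomal centring. No paired analysis was possible because the groups share no replicate numbers. Each group has 5 arrays, so differences near the median standard error of 0.10 could not be resolved.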
